A study of Mus musculus with 12 samples.

Results

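The genes described here are 7 members of the Sox family of transcription factors in differentiating mouse ESCs: the SoxB1 genes *Sox1*, *Sox2* and *Sox3*, the SoxB2 gene *Sox21*, the SoxC genes *Sox4* and *Sox11*, and the SoxG gene *Sox15*. They were taken by name from the 46517 gene rows of the count tables. They were selected on their normalised levels in these samples, in particular on the *Sox2* that was still present in *Meteor* KO cells at day 3, so that their values at both days are given as a description without a test. All 7 passed the filter on low values, which asked for over 1 CPM (the count of a gene made relative to the depth of its sample) in 1 sample or more, as did 15673 genes in all.

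The 12 samples of polyadenylated RNA formed 4 groups of 3: WT day 0, *Meteor* KO day 0, WT day 3 and *Meteor* KO day 3. Both genotypes were *Eomes* EGFP reporter ESCs of C57BL/6 background, in which an EGFP cassette sits at the start site of *Eomes*. Day 0 samples were ESCs grown on mouse embryonic fibroblast feeders, and day 3 samples were embryoid bodies formed in hanging drops of cardiac differentiation medium. The comparison addressed how loss of *Meteor*, a transcribed enhancer upstream of the mesendoderm regulator *Eomes*, altered the Sox genes before and during differentiation.

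The KO cells came from individually picked ESC clones after CRISPR-Cas9 nickase deletion, and the labels do not say how many clones the 3 KO replicates of a day represent. Nothing states that replicates were separate cultures, so that p-values measure the spread between these samples. *Platr11*, an annotated lncRNA gene at the deleted locus, had 30 to 112 reads in the WT day 0 samples and 0 or 1 read in each KO sample. *Upf3b*, a factor of nonsense-mediated mRNA decay that lies on another chromosome, had 833 to 1154 reads in each WT sample and 0 to 12 in each KO sample, so that its loss and the deletion cannot be told apart in any KO value below. Gene counts summed to 17455927 in the shallowest and 23910943 in the deepest sample. Among the WT day 3 samples, replicate 3 stood apart, with 101 CPM of the endoderm gene *Gata4* against 15.3 and 12.2, and among the WT day 0 samples, replicate 3 had 77.4 CPM of the primitive streak gene *T* against 4.64 and 6.42. The pluripotency gene *Zfp42* was at 467 ± 94.7 CPM in WT and 547 ± 80.0 in KO cells at day 0 (SD, n = 3), and at 21.7 ± 5.42 and 36.4 ± 5.35 at day 3.

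Sox proteins bind DNA through an HMG box, and the groups within the family differ mainly outside it. SOX2 acts with OCT4 to maintain pluripotency, and the SoxB1 genes as a group mark and maintain neural progenitors, in which the repressor SOX21 opposes them. SOX4 and SOX11 act in neuronal and mesenchymal progenitors, and SOX15 is a relative of the SoxB1 proteins that is expressed in ESCs.

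*Sox2* lies on chromosome 3 from 34650405 to 34652461 on the plus strand (GRCm38), as a single exon inside an intron of the lncRNA gene *Sox2ot*. *Sox1*, *Sox3*, *Sox21*, *Sox4* and *Sox11* are also single-exon genes, whereas *Sox15* has 2 exon blocks. The 250 bases upstream of the RefSeq start (build GRCm38.p6, strand of the gene) are shown for *Sox2* and *Sox15*, the members that were lower at day 3 than at day 0 by over 1 log2 unit in both genotypes, and for *Sox21*, which was nearly absent from KO cells at day 3. For *Sox2* and *Sox15* the RefSeq start lies upstream of the GENCODE start, and GENCODE gives the gene coordinates and exon lengths used here. Capitals mark a match to ACAAAG. The Sox motifs ACAATG and ACAAAG and the octamer ATGCAAAT were searched on both strands, and matches of different motifs may overlap in part.

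Sox2, chr3:34649745-34649994, plus strand: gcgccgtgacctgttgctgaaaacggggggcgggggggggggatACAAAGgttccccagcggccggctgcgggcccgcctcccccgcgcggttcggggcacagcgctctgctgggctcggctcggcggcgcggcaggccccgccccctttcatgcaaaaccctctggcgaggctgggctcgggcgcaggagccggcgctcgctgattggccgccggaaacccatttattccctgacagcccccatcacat
Sox21, chr14:118237031-118237280, minus strand: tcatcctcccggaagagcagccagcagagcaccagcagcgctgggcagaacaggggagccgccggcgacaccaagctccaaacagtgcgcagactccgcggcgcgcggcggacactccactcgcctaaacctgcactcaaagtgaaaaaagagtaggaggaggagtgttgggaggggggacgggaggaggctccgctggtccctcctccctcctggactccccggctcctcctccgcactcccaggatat
Sox15, chr11:69654787-69655036, plus strand: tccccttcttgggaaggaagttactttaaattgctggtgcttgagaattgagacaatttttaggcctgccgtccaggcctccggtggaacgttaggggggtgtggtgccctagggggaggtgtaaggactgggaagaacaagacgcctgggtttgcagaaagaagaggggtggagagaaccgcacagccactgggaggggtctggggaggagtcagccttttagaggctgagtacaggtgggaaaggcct

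Of the 6 members with an entry, 1 held a match, the ACAAAG of *Sox2*. ACAAAG occurred in 16.5% of 32851 such windows, ACAATG in 10.7% and the octamer in 1.60%. The *Sox2* window had a GC content of 72.0%, the *Sox21* window 65.2% and the *Sox15* window 55.6%, with a median of 52.4% over all windows. These matches describe letters only.

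*Sox2* was the most abundant SoxB1 gene in every sample. At day 0 its level in WT ESCs was 464, 406 and 419 CPM in replicates 1, 2 and 3, and in KO ESCs 436, 379 and 398 CPM. The groups overlapped, and the log2 fold change of KO over WT was -0.09 ± 0.06 (SE, edgeR). Within each replicate number the KO sample was the lower one, and with the replicate block set within each day the log2 fold change was -0.09 ± 0.05 (SE).

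At day 3 *Sox2* stood at 74.2, 62.6 and 61.2 CPM in WT embryoid bodies and at 193, 159.8 and 151 CPM in KO embryoid bodies. All KO samples were above all WT samples, and both genotypes were below their day 0 range. The level in KO was 2.54 times that in WT, a log2 fold change of 1.35 ± 0.07 (SE), and this value lay between 1.31 and 1.43 under every alternative processing and with any library left out. From day 0 to day 3 the fitted level went to 0.153 of its start in WT, a log2 difference of -2.71 ± 0.07, and to 0.414 of its start in KO, a log2 difference of -1.27 ± 0.07. The order of the levels was WT day 0, KO day 0, KO day 3 and WT day 3, and only the first pair overlapped in their samples. In bulk samples, fewer cells that express a gene and less RNA per cell cannot be told apart.

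*Sox2ot*, the lncRNA gene that contains *Sox2* but shares no exonic base with it, was looked up after its values had been seen and is described without a test. It was at 4.88 ± 1.49 CPM in WT and 4.79 ± 0.45 in KO at day 0, and at 1.00 ± 0.14 in WT and 2.84 ± 0.35 in KO at day 3 (SD, n = 3). Its log2 fold change of KO over WT at day 3 was 1.49 ± 0.27 (SE).

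**Figure D1:**
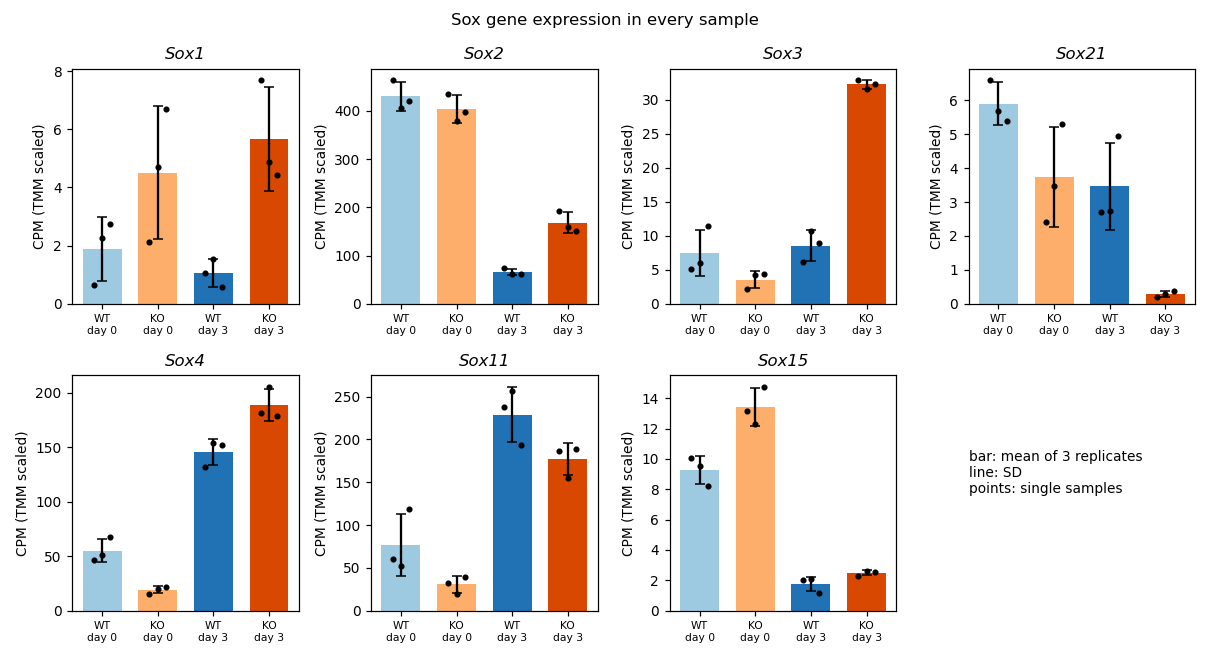
Normalised expression of the 7 Sox genes in CPM scaled by TMM (vertical axes, each from 0), by genotype and day; bars are means of 3 replicates, lines are the SD and points are samples. *Sox2* overlaps between genotypes at day 0 and stands at 168 ± 22.0 CPM in KO against 66.0 ± 7.10 in WT at day 3, *Sox3* is highest in KO at day 3, and *Sox21* is close to 0 there.

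*Sox3*, an X-linked SoxB1 gene of early neural tissue (chromosome X, 60891366 to 60893430), had the opposite sign at the 2 days. At day 0 it was at 5.19, 6.00 and 11.4 CPM in WT and 2.19, 4.19 and 4.34 CPM in KO. The groups did not overlap, and *Sox3* was lower in KO by a log2 fold change of -1.07 ± 0.27 (SE). WT replicate 3 was the highest of these samples, and without it the log2 fold change was -0.73.

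At day 3 *Sox3* stood at 6.16, 10.6 and 8.91 CPM in WT and at 32.9, 31.6 and 32.3 CPM in KO. The KO samples lay close together and 3.89-fold above WT (log2 fold change 1.96 ± 0.25, SE). In KO cells the level at day 3 was 9.44 times that at day 0, whereas in WT the days overlapped, with a log2 difference of 0.21 ± 0.26. The order was KO day 3, WT day 3, WT day 0 and KO day 0, and the middle 2 groups overlapped.

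*Sox1*, the SoxB1 gene most restricted to neural cells, was low throughout, with between 12 and 154 reads per sample. At day 0 it was at 0.655, 2.24 and 2.75 CPM in WT and 2.13, 4.69 and 6.69 CPM in KO. The groups overlapped, with a log2 fold change of 1.26 ± 0.54 (SE). Within each replicate number the KO sample was the higher one, and with the replicate block set within each day the log2 fold change was 1.29 ± 0.27 (SE). At day 3 *Sox1* was at 1.07, 1.54 and 0.572 CPM in WT and 7.70, 4.89 and 4.41 CPM in KO, without overlap, a log2 fold change of 2.47 ± 0.56 (SE). The 2 days overlapped in both genotypes.

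*Sox21* (chromosome 14, 118233232 to 118237030) went the other way from the SoxB1 genes at day 3. At day 0 it was at 6.61, 5.69 and 5.39 CPM in WT and 2.41, 3.47 and 5.31 CPM in KO. All KO samples were below all WT samples, with a log2 fold change of -0.74 ± 0.27 (SE), and KO replicate 3 lay just below the lowest WT sample.

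At day 3 *Sox21* was at 2.71, 2.74 and 4.95 CPM in WT and at 0.200, 0.284 and 0.375 CPM in KO. These KO values rest on 4, 5 and 9 reads. The WT level was 11.7 times the KO level (log2 fold change -3.55 ± 0.36, SE), and in KO cells the level at day 0 was 12.6 times that at day 3. *Sox14*, the other SoxB2 gene, did not pass the filter and had 0 to 9 reads in every sample.

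*Sox4* (chromosome 13, 28948919 to 28953713) had the lowest log2 fold change of the members at day 0. It was at 46.8, 51.4 and 67.4 CPM in WT and at 15.7, 20.3 and 22.0 CPM in KO. All KO samples were below all WT samples, and the log2 fold change was -1.51 ± 0.12 (SE). At day 3 *Sox4* was at 132, 153.7 and 152 CPM in WT and 181, 206 and 179 CPM in KO, again without overlap but with KO above WT, a log2 fold change of 0.38 ± 0.11 (SE). The day 3 level was 9.85 times the day 0 level in KO and 2.66 times in WT. The 4 groups were ordered KO day 3, WT day 3, WT day 0 and KO day 0, and no neighbours overlapped.

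*Sox11* (chromosome 12, 27334264 to 27342574), which acts with *Sox4* in neuronal progenitors, was at 60.8, 51.7 and 118 CPM in WT and 32.7, 19.6 and 39.8 CPM in KO at day 0. WT replicate 3 was the highest sample for *Sox11*, as for *Sox3* and *Sox4*. *Sox11* was lower in KO by a log2 fold change of -1.305 ± 0.27 (SE), and without WT replicate 3 the value was -0.94. At day 3 it was at 238, 256 and 193 CPM in WT and 186, 155.5 and 189 CPM in KO. The lowest WT sample was just above the highest KO sample, and the log2 fold change of -0.41 ± 0.26 (SE) ranged from -0.66 without WT replicate 3 to -0.09 without WT replicate 2. Both genotypes were above their day 0 range at day 3, by a log2 difference of 1.67 ± 0.27 in WT and 2.56 ± 0.27 in KO.

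*Sox15* (chromosome 11, 69655314 to 69656727) was at 10.1, 9.55 and 8.24 CPM in WT and 13.2, 12.3 and 14.8 CPM in KO at day 0. All KO samples were above all WT samples, with a log2 fold change of 0.54 ± 0.20 (SE). At day 3 *Sox15* was at 2.01, 2.07 and 1.19 CPM in WT and 2.30, 2.62 and 2.54 CPM in KO, from 25 to 61 reads per sample. KO was again above WT, by a log2 fold change of 0.51 ± 0.23 (SE). Both genotypes were below their day 0 range at day 3, by a log2 difference of -2.40 ± 0.22 in WT and -2.43 ± 0.22 in KO.

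At day 0 the samples of the 2 genotypes did not overlap for 5 of the 7 Sox genes, of which 4 were lower in KO and *Sox15* was higher (34.2% of all tested genes in either direction). The median of the 7 log2 fold changes was -0.74, against -0.01 over all tested genes. At day 3 they did not overlap for any of the 7, of which 5 were higher and 2 lower in KO (43.8% of all tested genes, 20.8% higher and 23.0% lower). Since the members were chosen with these levels known, nothing is read from these counts. Between the days the samples did not overlap for 5 of 7 in WT (57.8% of all tested genes) and for 6 of 7 in KO (62.6%).

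**Figure D2:**
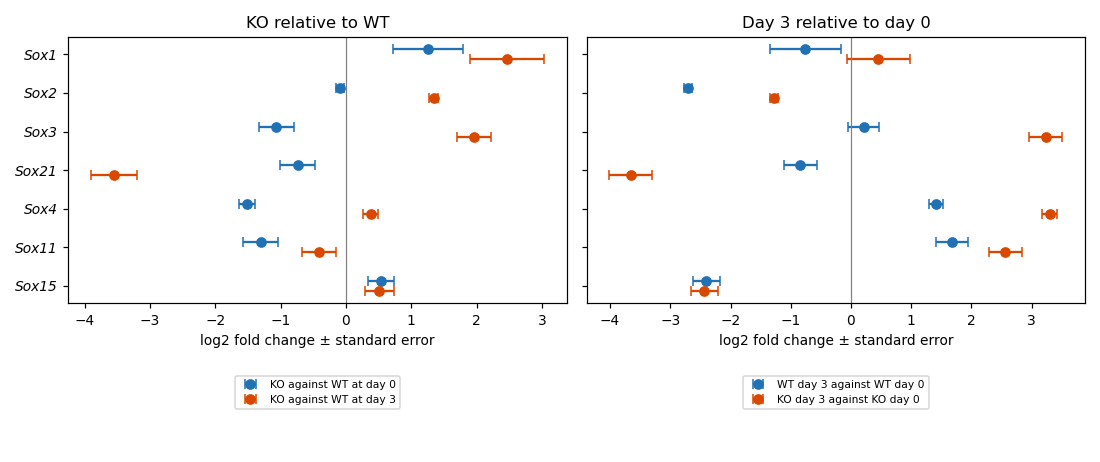
Log2 fold changes with their standard errors (horizontal axes) of the 7 Sox genes from the fit to all 12 samples; left, KO relative to WT at day 0 and day 3; right, day 3 relative to day 0 in WT and KO. *Sox3* and *Sox4* lie below 0 at day 0 and above 0 at day 3 on the left, and *Sox15* has nearly the same value for both genotypes on the right.

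Levels of different genes were compared as CPM per kilobase of exon in GENCODE, so that they depend on its exon lengths. Within SoxB1, *Sox2* made up 98.1 ± 0.90% of the summed level in WT and 98.6 ± 0.57% in KO at day 0 (SD, n = 3). At day 3 its share was 87.9 ± 3.61% in WT and 82.8 ± 1.31% in KO, while the share of *Sox3* was 11.5 ± 3.51% and 16.0 ± 1.53%. The range of the *Sox2* share in WT was 84.8 to 91.8% and that in KO 81.6 to 84.2%, so that the groups did not overlap. *Sox1* made up less than *Sox3* in every group, with 1.17 ± 0.23% in KO at day 3.

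The summed SoxB1 level was 213 ± 14.0 CPM per kilobase in WT and 199 ± 13.1 in KO at day 0, and 36.5 ± 2.58 in WT and 98.4 ± 11.3 in KO at day 3. The summed level of *Sox4* and *Sox11* was 20.8 ± 6.51 in WT and 7.73 ± 1.46 in KO at day 0, and 58.0 ± 4.29 and 60.7 ± 0.84 at day 3, where the groups overlapped. The ratio of the SoxB1 sum to that of *Sox4* and *Sox11* was thus 10.9 ± 3.09 in WT and 26.3 ± 4.65 in KO at day 0. At day 3 it was 0.631 ± 0.06 in WT, below 1 in every sample, and 1.62 ± 0.20 in KO, above 1 in every sample. *Sox12*, the SoxC gene that is not among the 7, is not in these sums. With it, a sum added after the values were seen, the SoxC level was 33.9 ± 4.43 in WT and 19.9 ± 1.33 in KO at day 0, and at day 3 it was 68.0 to 79.3 in WT and 83.2 to 84.7 in KO, where the groups did not overlap. The ratio of SoxB1 to this larger sum was 6.35 ± 0.84 in WT and 10.02 ± 0.34 in KO at day 0, and 0.502 ± 0.05 and 1.17 ± 0.15 at day 3.

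**Figure D3:**
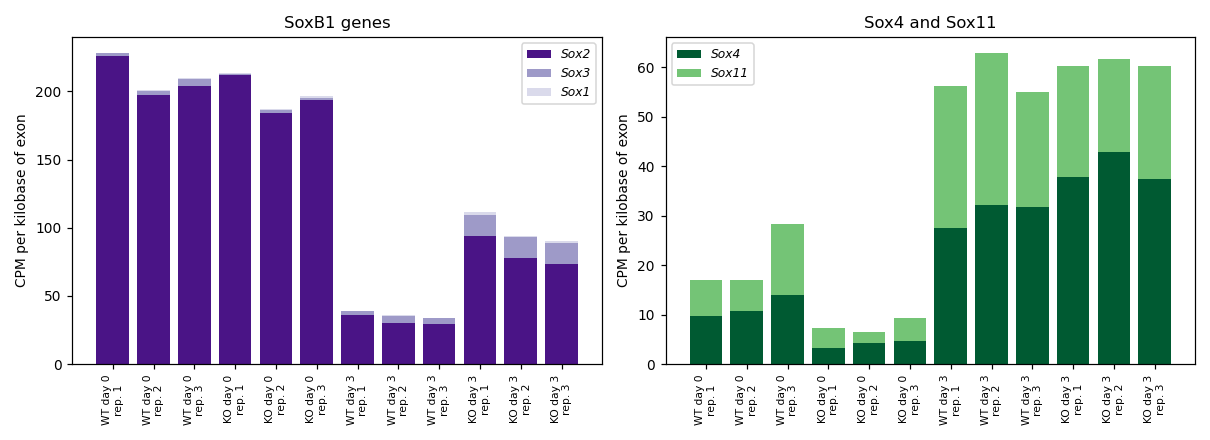
CPM per kilobase of exon (vertical axes) in each of the 12 samples, stacked by gene, for the SoxB1 genes on the left and for *Sox4* and *Sox11* on the right. *Sox2* fills most of each SoxB1 bar, KO day 3 bars reach 90.01 to 111 against 34.2 to 39.2 in WT, and the bars of *Sox4* and *Sox11* at day 3 reach 54.9 to 62.9 in WT and 60.1 to 61.6 in KO.

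The genes nearest to *Sox2* over the 12 samples, by the root mean square difference of centred log2 CPM among 14177 protein-coding genes, were *D630023F18Rik* at 0.209, *Gm14139* at 0.269, *Gm17067* at 0.278, *Phf11d* at 0.279 and *Platr17* at 0.281. *D630023F18Rik* had means of 7.20 CPM in WT and 7.34 in KO at day 0 and 0.981 and 2.64 at day 3. Nearest to *Sox15* were *Ephx1* at 0.246, *Lrrc2* at 0.250, *Vgll3* at 0.253, *Prx* at 0.268 and *Dppa5a* at 0.273. *Dppa5a*, a gene of pluripotent cells, had means of 584 CPM in WT and 727 in KO at day 0 and 88.1 and 181 at day 3.

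The other 12 Sox genes were tested at both days, and 10 of them passed the filter. At day 0, 1 passed the test, the quasi-likelihood test of edgeR with Benjamini-Hochberg adjustment over all tested genes, beside 20.4% of all tested genes (9.56% higher and 10.9% lower). It was the SoxE gene *Sox9*, at 9.10 ± 4.62 CPM in WT and 2.06 ± 0.62 in KO (log2 fold change -2.06 ± 0.48, SE; edgeR adjusted p = 0.0136). It did not pass without KO replicate 1 or KO replicate 3. *Sox7*, a gene of endoderm, was at 1.61 ± 0.42 CPM in WT and 9.10 ± 3.998 in KO at day 0 (edgeR adjusted p = 0.054) and passed as a further gene, with an edgeR adjusted p of 0.0176, with the replicate block set within each day and also without any 1 of the WT day 3 samples, as did *Sox18* without KO day 3 replicate 3. At day 3, 5 of 10 passed, 2 higher and 3 lower in KO, beside 30.9% of all tested genes (14.3% higher and 16.7% lower). *Sox12* was at 67.0, 73.1 and 58.3 CPM in WT and 102, 103 and 108 CPM in KO, and rose by a log2 fold change of 0.67 ± 0.12 (SE; edgeR adjusted p = 0.00241). *Sox13*, a SoxD gene, was the other one that was higher (0.77 ± 0.12; edgeR adjusted p = 0.00128). The 3 SoxC genes thus differed in their day 3 values, with log2 fold changes of 0.38 for *Sox4*, -0.41 for *Sox11* and 0.67 for *Sox12*, of which only the last was tested.

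The lower ones were *Sox17*, *Sox9* and *Sox18*. *Sox17*, a regulator of endoderm, was at 14.8, 11.2 and 43.2 CPM in WT at day 3 and at 0.300, 0.569 and 0.208 CPM in KO, a log2 fold change of -5.95 ± 0.63 (SE; edgeR adjusted p = 0.000203). WT replicate 3 was highest, and without it the value was -4.98. For *Sox9*, the log2 fold change was -2.59 ± 0.51 (SE; edgeR adjusted p = 0.0044) and -1.79 without that sample, and for *Sox18*, a gene of endothelial precursors, it was -1.69 ± 0.49 (SE; edgeR adjusted p = 0.026), and -1.15, no longer past the test, without it. The call of *Sox18* was also lost without KO replicate 3, at -0.97.

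Between the days, 4 of the 10 passed in WT (56.2% of all tested genes) and 3 in KO (56.6%). In WT, *Sox17* rose by a log2 fold change of 4.90 ± 0.58 (SE; edgeR adjusted p = 9.47e-05), *Sox18* rose by 1.28 ± 0.46, and *Sox8* and *Sox13* fell. The call of *Sox18* was lost without the replicate block (edgeR adjusted p = 0.0654). In KO, *Sox12* rose by 0.96 ± 0.12 (SE; edgeR adjusted p = 8.46e-05), and *Sox7* and *Sox8* fell. The KO effect differed between the days for 4 of the 10 (15.5% of all tested genes), with *Sox12* and *Sox13* more positive and *Sox7* and *Sox17* more negative at day 3. Without the replicate block *Sox13* did not pass that test (edgeR adjusted p = 0.0615). These counts are small: 2 instead of 4 genes passed between the days in WT without WT day 0 replicate 2 or 3, and 2 instead of 4 passed the test of the difference without WT day 0 replicate 2 or 3, KO day 0 replicate 1 or 2, or any 1 of the KO day 3 samples.

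Of 7 genes known as targets of OCT4 and SOX2 together, 1 passed the test at day 0 and 5 at day 3, each time higher in KO. This list and the lists below were chosen with earlier results of these data known, so that their counts are a description. Over all tested genes, 20.4% passed at day 0 (9.56% higher) and 30.9% at day 3 (14.3% higher). *Fgf4*, a growth factor whose enhancer binds both proteins, was at 114 ± 15.9 CPM in WT and 241 ± 21.3 in KO at day 0 (SD, n = 3) and rose in KO by 1.09 ± 0.22 on the log2 scale (SE; edgeR adjusted p = 0.00739). At day 3 it was at 16.4 ± 6.48 CPM in WT and 54.9 ± 6.79 in KO, a log2 fold change of 1.76 ± 0.23 (SE; edgeR adjusted p = 0.000588). *Utf1*, a chromatin factor of pluripotent cells, was at 49.7, 75.3 and 75.6 CPM in WT and 242, 319.5 and 261 CPM in KO at day 3, a log2 fold change of 2.06 ± 0.12 (SE; edgeR adjusted p = 9.73e-06). *Pou5f1*, which encodes OCT4, was at 535 ± 174 CPM in WT and 695 ± 40.1 in KO at day 3 (edgeR adjusted p = 0.132), and *Nanog* at 271 ± 126 and 166 ± 12.6 (edgeR adjusted p = 0.107), so that neither passed the test. With the replicate block set within each day *Pou5f1* passed, higher in KO by 0.44 (edgeR adjusted p = 0.0272). Without WT day 3 replicate 3, in which *Nanog* was lowest, *Nanog* was lower in KO by a log2 fold change of -1.01 and passed, and 3 genes of the list were called at day 0. The median log2 fold change of the list was 0.03 at day 0 and 0.78 at day 3, against -0.01 and -0.002 over all tested genes.

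Among 13 neural plate genes, 9 passed the test at day 0, 8 lower and 1 higher in KO, beside 20.4% of all tested genes. At day 3, 6 passed, 4 lower and 2 higher in KO, beside 30.9% of all tested genes. With the replicate block set within each day, 10 of the 13 passed at day 3, beside 46.9% of all tested genes under that block. *Otx2*, a homeobox gene of the epiblast and anterior neural plate, was at 35.5 ± 7.46 CPM in WT and 3.89 ± 1.99 in KO at day 0 (log2 fold change -3.21 ± 0.25, SE; edgeR adjusted p = 7.72e-05), and at 166 ± 13.1 and 246 ± 16.6 at day 3, where it did not pass the test (edgeR adjusted p = 0.0537) unless replicates were blocked within each day (edgeR adjusted p = 0.00484). *Pou3f1*, a POU factor of the neural plate, was at 23.0 ± 6.89 CPM in WT and 5.88 ± 1.304 in KO at day 0, and at 33.3 ± 6.17 and 147 ± 24.0 at day 3, a log2 fold change of -1.96 ± 0.18 and then of 2.15 ± 0.16. Among the genes of the list called lower in KO at both days was *Fabp7*, a fatty acid binding protein of radial glia. It was at 1.15 ± 1.12 CPM in WT and 0.0524 ± 0.0511 in KO at day 0. At day 3 it was at 3.39 ± 0.94 and 0.632 ± 0.20. Its day 0 values rest on 7, 12 and 46 reads in WT and on 0 to 2 in KO. *Ncam1*, a cell adhesion molecule, was higher in KO at day 0 (1.39 ± 0.31) and lower at day 3 (-1.52 ± 0.34), and its day 0 call was lost without KO replicate 2.

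Of 8 tested neuronal genes, 5 passed the test at day 0, each lower in KO, beside 20.4% of all tested genes. At day 3, 4 passed, 3 higher and 1 lower in KO, beside 30.9% of all tested genes. *Tubb3*, a neuronal tubulin, was at 128 ± 14.8 CPM in WT and 79.0 ± 19.9 in KO at day 0 and at 11.7 ± 2.38 and 30.8 ± 3.00 at day 3, a log2 fold change of -0.70 ± 0.19 and then of 1.40 ± 0.20. *Elavl3*, a neuronal RNA-binding protein, was higher in KO at day 3 by 2.63 ± 0.45 (SE; edgeR adjusted p = 0.00216), and *Stmn2*, a regulator of microtubules, was lower at both days. The day 0 count of this list was 3 without WT replicate 1, WT replicate 2, KO replicate 1 or KO replicate 3 and 2 without KO replicate 2, and the day 0 call of *Tubb3* was among those lost, except without KO replicate 3.

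All 10 primitive streak genes passed the test at day 3, each lower in KO, beside 30.9% of all tested genes. At day 0, 2 of them, *T* and *Lhx1*, passed, also lower in KO, beside 20.4% of all tested genes. The median log2 fold change of the list at day 0 was -1.41. For some of the 10, only WT day 3 samples exceeded 1 CPM, so that the filter favoured a lower KO level at day 3. The day 0 calls rest on single libraries: 1 gene remained without WT replicate 3 or KO replicate 1 and 0 without KO replicate 2 or KO replicate 3, and 0 passed in limma-voom. The summed level of the list was 940 to 1854 CPM in WT and 77.9 to 152 CPM in KO at day 3. *T* was at 693, 613 and 269.5 CPM in WT and 13.5, 1.31 and 4.12 CPM in KO at day 3. *Eomes* was at 404 ± 124 CPM in WT and 109 ± 47.9 in KO.

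Markers of other cell types that the samples could hold were summed beside these results. Of 9 embryonic fibroblast markers, 8 were tested and 0 passed in edgeR at day 0, beside 20.4% of all tested genes. In that test 2 had an unadjusted p below 0.05, and 0 passed in limma-voom or DESeq2. With the replicate block set within each day 3 passed at day 0, beside 34.8% of all tested genes under that block, and 1 passed without WT day 3 replicate 2. At day 3, 5 passed, 3 higher and 2 lower in KO, beside 30.9% of all tested genes. Without WT replicate 3 or KO replicate 3, 3 in all passed at day 3. Their summed level was 97.6 to 279 CPM in WT and 144 to 381 in KO at day 0, and 59.9 to 128 and 44.5 to 90.4 at day 3, and *Lum* was at most 0.326 CPM in any sample. Of 8 extraembryonic endoderm markers, which include *Sox7* and *Sox17*, 1 passed at day 0 and 3 at day 3, each lower in KO. Over all tested genes the shares were 20.4% and 30.9%. As a further gene, *Sox7* passed at day 0 under the settings given above, and 5 passed at day 3 without WT replicate 2. They had a summed level of 440 to 455 CPM in WT replicates 1 and 2, 1091 in WT replicate 3 and 342 to 442 in KO at day 3. The part of these cells in the Sox values was not tested; without WT day 3 replicate 3 the log2 fold change of *Sox2* at day 3 was 1.36.

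**Figure D4:**
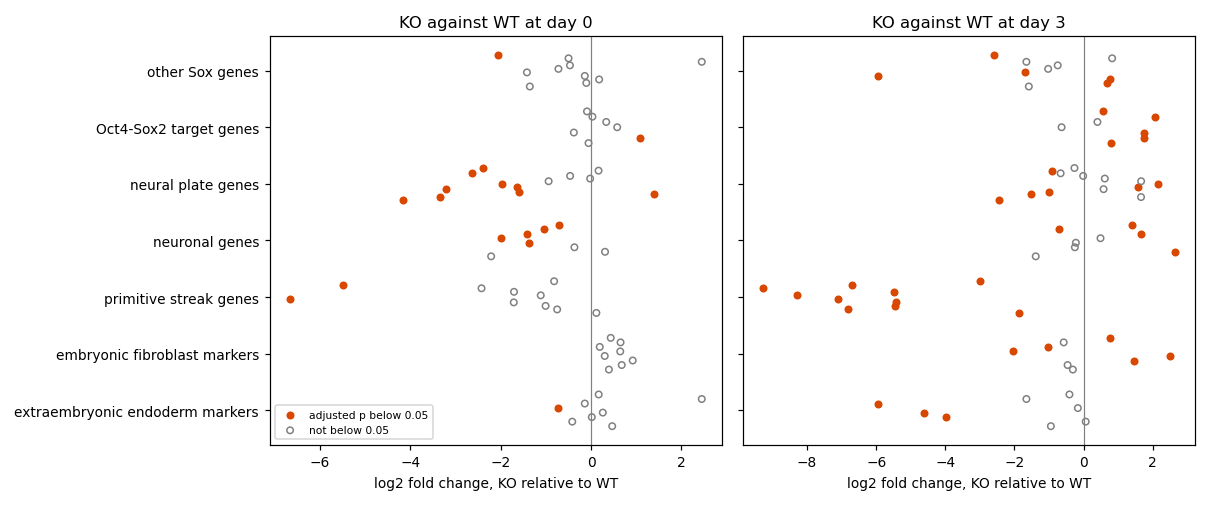
Log2 fold changes of KO relative to WT (horizontal axes) at day 0 and day 3 for each tested gene of the 7 gene lists; filled points passed an adjusted p of 0.05 in edgeR and open points did not. The primitive streak genes lie to the left at day 3, all 10 filled, and 5 of the 7 targets of OCT4 and SOX2 are filled to the right. Over all tested genes, 20.4% passed at day 0 and 30.9% at day 3.

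The members' transcripts share no run of 100 bases with those of another gene. *Sox4* overlaps the opposite-strand lncRNA gene *Gm26735* over 2616 exonic bases, *Sox21* overlaps *Gm4675* over 713 and *Sox15* overlaps *Mpdu1* over 31. The library kit marks the strand, but the strand setting of the counting is not given in the sources used here. *Gm26735* and *Gm4675* had 50 and 51 reads over the 12 libraries, and *Mpdu1* had 18102.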

How the data were processed

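Polyadenylated RNA of 12 samples was measured. The authors trimmed the reads (cutadapt 1.3), aligned them to GRCm38 (STAR 2.4.2a) and counted reads per gene (HTSeq 0.6.1), per the submitters' processing notes. The deposited values are whole-number counts without normalization. Reads aligned to several places (36.52 to 44.09% of alignments) are not in them, and rows that name no gene (46.3 to 51.0% of the totals) were left out.

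Ensembl identifiers were matched to GENCODE mouse M21 (46005 of 46517), and promoter windows came from RefSeq. The fit used edgeR 4.0.16 (R 4.3.3), TMM, 1 coefficient per group and the replicate number as a block, since the study's methods add a batch factor; genes over 1 CPM in any sample were kept, and p-values were adjusted over all of them (threshold 0.05). Each SE was derived from the edgeR fit, as the size of the log2 fold change over the square root of the F statistic. Same-numbered WT and KO samples of a day deviated together (correlation 0.341 or more, mean 0.545, over 6 pairs), those of different days did not (mean -0.049). The main block joins samples of 1 number across the days and so does not match this pairing, whereas the block within each day does. With the latter, 34.8% of all tested genes passed at day 0 and 46.9% at day 3, against 20.4% and 30.9% in the main fit. Replicates differed beyond sampling noise (chi-square per gene 10.6 to 50.8). Scripts were tested on simulated data.

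The members and gene lists were chosen with earlier results of these data known. A test of the members at day 0 had been planned and is not given, since their choice followed the levels at both days. Named genes are the members, *Sox12*, *Sox14* and the 3 largest called changes among the other Sox genes, per other list the 3 genes with the highest mean CPM and the largest called rise and fall, and the 5 nearest to *Sox2* and *Sox15*; *Sox2ot*, *Sox13*, *Gata4*, *Zfp42* and *Lum* were added after their values were seen. The result of 1 gene that this rule names is not reported here. Alternatives used limma 3.58.1 (voom), DESeq2 1.42.0, RLE factors, other filters, other blocks, the samples of 1 day, and each library left out. Tables and figures were made with pandas 2.3.3 and matplotlib 3.10.9.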

Additional observations from a re-analysis of the deposited data

Results flagged for a closer look

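The effect of the KO was compared between the days for the named genes by an interaction term in edgeR, and the genes given here passed an adjusted p of 0.05 in that test. Each value is the log2 fold change of KO over WT at day 3 minus that at day 0. It was positive for *Sox12* at 0.77, *Utf1* at 2.03, *Otx2* at 3.79, *Zic2* at 1.98 and *Pou3f1* at 4.12. It was also positive for the neuronal genes *Tubb3* at 2.10, *Elavl3* at 2.32 and *Nefm* at 2.48, and for *Dcn* at 2.21 and *Lamb1* at 0.56. Without the replicate block *Lamb1* did not pass (edgeR adjusted p = 0.0921). It was negative for *Sox7* at -4.10, *Sox17* at -5.82, *Ncam1* at -2.91, *Eomes* at -1.99 and *Fbn1* at -2.67. For *Sox7* the log2 fold change was 2.45 at day 0 and -1.65 at day 3. In the day 3 samples, WT replicate 3 had 12.9 CPM of *Sox7* and the other WT samples 0.28 and 1.11. Without WT day 3 replicate 3 the day 3 log2 fold change of *Sox7* was 0.34.

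*Sox3* and *Sox4* were noticed because every KO sample was below every WT sample at day 0 and above every WT sample at day 3. The change in their KO effect was 3.03 for *Sox3* and 1.89 for *Sox4* on the log2 scale. This difference was not tested, since both genes were chosen with their levels known.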

How the results depend on the processing

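All 55 values of the members' day 0 fold changes under other settings, and all 84 with 1 library left out, moved by less than the spread between replicates. At day 3 all 55 and 83 of the 84 did so, and 1 moved further. None of the members changed sign in the day 0 or day 3 comparison of KO and WT. Between the days, all 41 and 84 values in WT stayed within that spread. In KO all 41 and 83 of the 84 did so, and 1 moved further. The sign between the days changed for *Sox3* in WT (-0.003 to 0.53) and *Sox1* in KO (-0.20 to 0.89). For the other Sox genes, requiring 10 counts in all samples left 4 genes and called 3 at day 3, 1 between the days in WT, 1 in KO and 2 in the difference of the KO effects. Leaving out 1 library gave 2 to 4 between the days in WT, 2 to 4 in the difference of the KO effects and 4 to 6 at day 3. For the genes of the other lists, the main count was 18 at day 0 and 32 at day 3. It was 31 at day 0 with only the 6 samples of that day, and 21 at day 3 with that requirement. Without the replicate block it was 18 and 31. Dropping the block changed no call of a named gene between KO and WT at either day. Between the days in WT it lost *Sox18*, *Pou3f1* and *Col4a1*, in KO it added *Eomes*, and in the difference of the KO effects it lost *Sox13* and *Lamb1*, so that 3 instead of 4 other Sox genes passed in WT and in the difference. Setting the block within each day added calls for *Sox7*, *Col1a2* and *Fbn1* at day 0, for *Pou5f1*, *Otx2*, *Zic2* and *Col4a1* at day 3 and for *Col1a2*, *Col4a1*, *Fabp7* and *Nanog* in the difference, and took away none of the named ones. The cause of these shifts was not tested beyond the smaller number of genes under the stricter filter.

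With 1 library left out, the day 0 log2 fold change changed sign for *Sox17* (-0.535 to 0.47), *Sox12* (-0.21 to 0.003), *Utf1* (-0.061 to 0.13), *Elavl3* (-0.034 to 0.895), *Eomes* (-0.22 to 0.35), *Dcn* (-0.28 to 0.94) and *Sparc* (-0.065 to 0.32), none of which had passed the test. At day 3 it changed sign for *Sox7* (-2.34 to 0.34), *Nefm* (-0.011 to 1.00) and *Col1a1* (-0.76 to 0.004), likewise not called. In each of the 3 day 3 cases the sign changed without WT replicate 3.

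The replicate block within each day gives no comparison between days, and the setting with the samples of 1 day was not run there. Values of *Sox21* in KO at day 3 rest on few reads. Each group had 3 samples.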
